A study of Rattus norvegicus with 10 samples.

Results

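The genes described here encode the proteins of the cytosolic ribosome. They were taken by symbol from the array's platform annotation: every symbol starting with Rpl or Rps and a digit, with Rpsa and the acidic stalk proteins Rplp0, Rplp1 and Rplp2, leaving out the S6 kinases, the "-like" paralogs and pseudogene symbols. A gene was measured where a probe set named it alone, and its brightest probe set over all 10 arrays stood for it. This gave 43 of the 14217 genes on the array with a probe set of their own, 29 of the large subunit and 14 of the small subunit. A further 26 ribosomal protein genes were on probe sets that also name their near-identical copies. These are described separately, since such a probe set cannot tell the gene from its copies.

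The cytosolic ribosome joins a small subunit, which decodes the messenger RNA, to a large subunit, which forms the peptide bond and releases the chain through an exit tunnel. The messenger RNAs of its proteins belong to the TOP class: they begin with a tract of C and T bases (C and U in the RNA), through which mTORC1 signalling and the binding protein Larp1 control their translation together. Myc raises their transcription, and the proteins Rpl5 and Rpl11, when they are free of the ribosome, bind Mdm2 and so stabilise p53.

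RefSeq's promoter table (build GRCr8) held 38 of the 43 genes, each with 250 bases before and 50 after the annotated start. The longest run of C and T that touched the 20 bases on either side of the start was at least 8 bases long in 29 of these 38 promoters (76.3%), against 20.9% of all 27457 promoters in the table. Its median length was 11 bases in the ribosomal protein genes and 5 bases over all promoters. A part of each window is shown, from 40 bases before to 20 bases after the start, on the gene's own strand with that longest run in capitals. The first window has the longest run. The next 4 belong to genes among those that moved most between samples of tumors 09I1 or 43D1, and the 4 after those to genes that did not rise in the final sample of 09I1. The last is one of the 2 with the shortest run. These genes were chosen after their values were seen.
Rpl7a, chr3:30637096-30637155, + strand: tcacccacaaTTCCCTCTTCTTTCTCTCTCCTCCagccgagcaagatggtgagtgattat
Rpl22, chr5:168117921-168117980, + strand: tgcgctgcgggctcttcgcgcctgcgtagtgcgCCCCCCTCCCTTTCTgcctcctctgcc
Rps28, chr7:15311314-15311373, - strand: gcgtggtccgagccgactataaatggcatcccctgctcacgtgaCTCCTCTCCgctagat
Rpl35, chr3:43165902-43165961, - strand: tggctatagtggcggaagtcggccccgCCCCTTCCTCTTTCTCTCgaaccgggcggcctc
Rpl21, chr12:13386134-13386193, - strand: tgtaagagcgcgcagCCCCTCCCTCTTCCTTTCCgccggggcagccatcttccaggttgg
Rpl3, chr7:113507971-113508030, - strand: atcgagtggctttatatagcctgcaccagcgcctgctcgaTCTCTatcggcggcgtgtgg
Rpl4, chr8:73566437-73566496, + strand: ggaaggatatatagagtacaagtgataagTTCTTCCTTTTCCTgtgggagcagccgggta
Rpl5, chr14:1995206-1995265, - strand: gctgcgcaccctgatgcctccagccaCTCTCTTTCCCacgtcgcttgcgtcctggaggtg
Rps6, chr5:106420521-106420580, - strand: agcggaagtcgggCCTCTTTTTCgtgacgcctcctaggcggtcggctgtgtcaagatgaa
Rpl41, chr7:1563478-1563537, - strand: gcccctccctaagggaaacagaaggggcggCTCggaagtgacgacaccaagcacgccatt

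Among the genes that moved, the run was 15 bases in Rpl22, 9 in Rps28, 18 in Rpl35 and 19 in Rpl21. Among the genes that did not rise in 09I1 it was 5 in Rpl3, 14 in Rpl4, 11 in Rpl5 and 10 in Rps6. The sets overlapped. Rpl14, not shown, changed by 0.36 in 09I1 and -0.33 in 43D1 and had a run of 14 bases. Rpl4, with a run of the same length, changed by -0.20 in 43D1. Genes chosen after their values were seen cannot show whether run length goes with movement. Across the 34 highly expressed members with a promoter, run length and the change in 09I1 minus that in 43D1 had a Spearman rho of 0.29 (Pearson r 0.32), a description across genes that share their arrays. Short motifs were searched on both strands of the whole 300 bases. The GC box GGGCGG was in 65.8% of the members' promoters and in 34.9% of all promoters, the Ets-type motif CCGGAA in 36.8% and 15.8%, AAGATGG, which holds a start codon, in 21.1% and 7.3%, and the TATA box TATAAA in 13.2% and 14.3%. The members' promoters had a median GC content of 56.3%, against 52.3% for all promoters. A match of letters is a description and not a binding site.

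The values come from mammary tumors of female Sprague-Dawley rats that had been given the carcinogen DMBA once by mouth at 100 mg/kg. Each of 5 grade II tumors (codes 09I1, 11D2, 12I1, 29I1, 43D1) gave an untreated needle biopsy at 12 weeks of age (basal, n = 5) and a sample at 19 weeks (final, n = 5) after weekly intravenous adriamycin at 1 mg/kg for 6 weeks. Adriamycin (doxorubicin) is an anthracycline that traps topoisomerase II on DNA. The comparison asks what differed between the earlier and later sample of a tumor. There were no untreated tumors of the later age. The final samples are whole tumors by their labels but needle samples by the design text. The codes that end the sample titles are consecutive within each group and separate between groups, and what they stand for is not stated. Treatment, age, kind of sample and whatever these codes mark therefore cannot be told apart. It is not stated whether the tumors came from separate rats, so the spread behind each p-value is that between tumors, and in bulk tissue fewer cells of a type and less RNA per cell cannot be told apart.

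The epithelial markers had a median level of 10.61 to 11.36 log2 units on every array. On the final array of 09I1 the difference between the beta-actin control probe sets at the 3' and 5' ends was 2.61 log2 units, while it was 0.72 to 0.96 elsewhere. The same difference for GAPDH was 0.93, against 0.09 to 0.24. On the final array of 11D2 the skeletal muscle markers had a median of 9.77, against 3.94 to 5.25 elsewhere. Several values that 09I1 decides are also given without it.

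Ribosomal protein transcripts were among the brightest on the arrays. Of the 43 genes, 38 had a mean level over 12 log2 units (12.58 to 13.92, median 13.5), and 5 were dim (4.19 to 6.48). The median over all 12255 tested genes was 7.94. Members made up 17 of the 25 brightest genes and 35 of the 50 brightest, and all 38 bright ones were among the brightest 100. The bright members comprised 26 large subunit and 12 small subunit genes. Probe sets bind their targets unequally, so this order is one of array brightness and not of transcript number, and the brightest probe set of any gene on an array read 14.05 to 14.48, close to these levels.

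The highest member was Rps29, a small zinc-binding protein of the small subunit. It read 13.94, 13.89, 13.82, 13.96 and 14.02 in the basal samples (tumors in the order 09I1, 11D2, 12I1, 29I1, 43D1, as throughout) and 14.05, 13.88, 13.88, 13.90 and 13.89 in the final ones. It was followed by Rpl7a (mean 13.91, SD 0.054 over the 10 arrays), Rpl26 (13.90, SD 0.065), which is also known to promote translation of the p53 message, and Rpl27a (13.89, SD 0.049). From Rps29 to Rpl27a, neighbours in this order lay closer together than their own SD over the arrays. Rps6, the classic substrate of the S6 kinases, had a mean of 13.80 (SD 0.048), Rps24 13.78 (SD 0.072), Rpl3, which lies near the catalytic centre, 13.77 (SD 0.084), and Rps23 13.76 (SD 0.074).

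**Figure D1:**
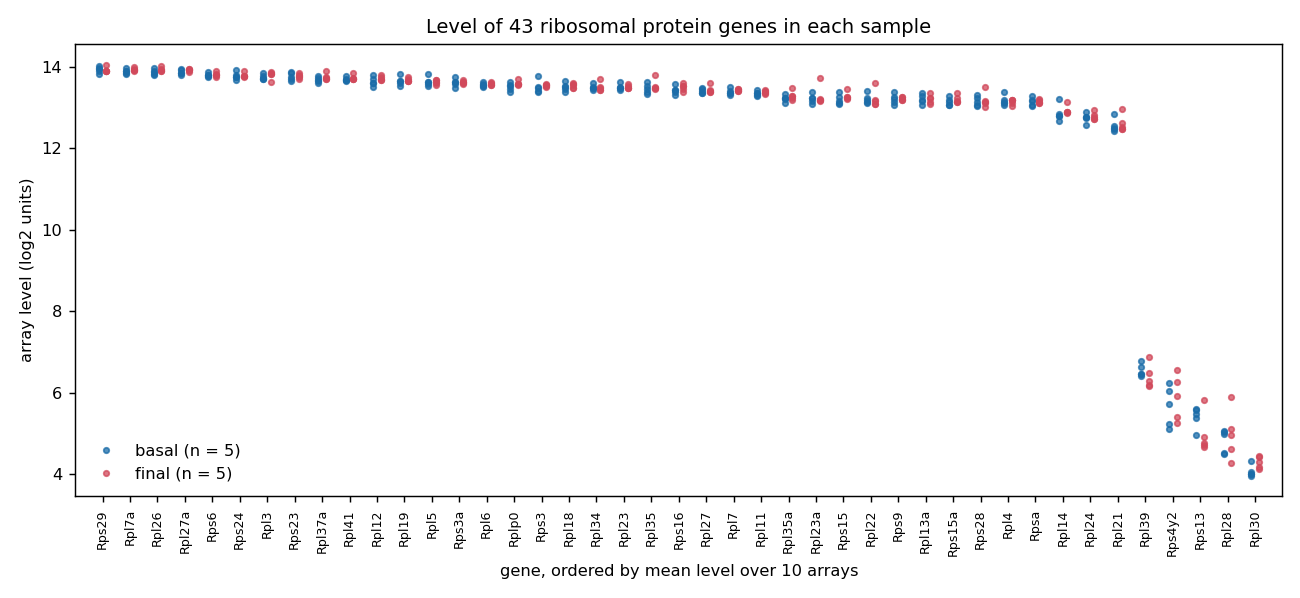
Array level (log2 units) of each of the 43 ribosomal protein genes in the 5 basal (blue) and 5 final (red) samples, with genes ordered by mean level. The 38 bright genes form a narrow band with means from 12.58 to 13.92, and the 5 dim ones lie between 4.19 and 6.48.

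The 5 dim members were Rpl39, Rps4y2, Rps13, Rpl28 and Rpl30. For Rps13, Rpl28 and Rpl30 the array holds a second probe set, shared with copies of the gene, that read 13.35, 13.53 and 13.30. The probe set naming the gene alone thus read 5.19, 4.90 and 4.19, far under the one that also detects its copies. The amount of messenger RNA of these 3 genes cannot be read from the dim probe set alone.

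The bright members differed little between samples. Their SD over the 10 arrays had a median of 0.082 log2 units (0.040 to 0.178), against 0.293 over all tested genes, and 34 of the 38 lay at or under the 10th percentile of all genes (0.152). The other 44 genes at least as bright as the dimmest of the 38 had a median SD of 0.181. At 13 log2 units or more, 35 members had a median SD of 0.078 and 19 other genes, at nearly the same median level (13.52 and 13.48), one of 0.195. Among the latter were Apoe (SD 0.608) and the epithelial keratin Krt19 (SD 0.326), and also the mitochondrial COX2 (SD 0.046), which varied nearly as little as the steadiest member. The steadiest member was Rpl6, at 0.040, and the most variable bright ones were Rpl23a (0.178), Rpl21 (0.177) and Rpl22 (0.162). Brighter members varied less (Spearman rho -0.63, Pearson r -0.67 across 38 genes that share the same arrays). The parts of the array's upper limit and of the deposited values' normalisation in this, and in the members' small spread, were not tested.

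**Figure D2:**
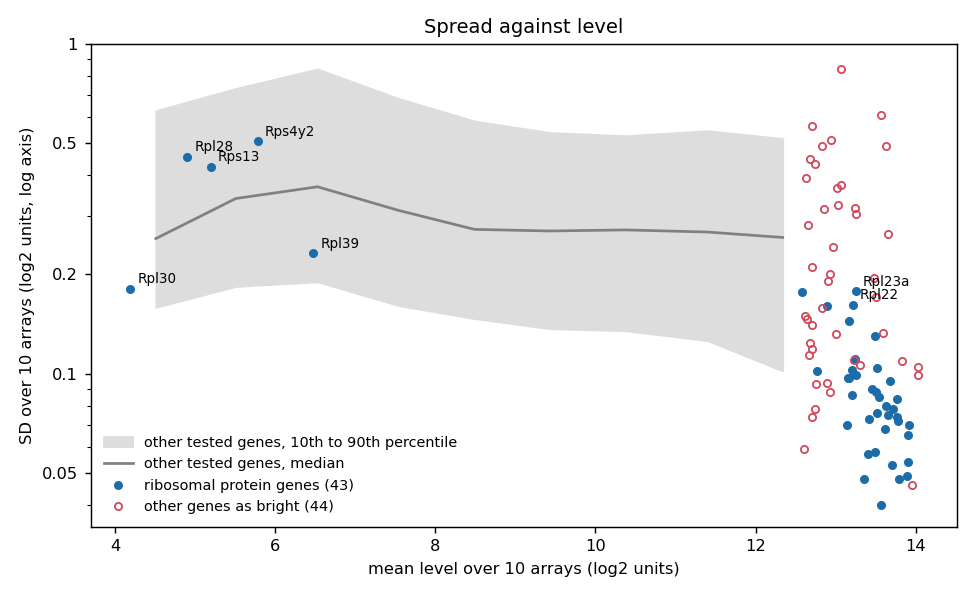
SD over the 10 arrays (log axis) against mean level, both in log2 units, for the 43 ribosomal protein genes (filled), the 44 other genes as bright (open) and the remaining tested genes (grey band from the 10th to the 90th percentile, line at the median). The bright members lie mostly under 0.152, with Rpl23a, Rpl21 and Rpl22 highest among them, while the other bright genes reach 0.838.

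What variation there was ran largely in common. The median of the bright members' deviations from their own means, 1 value per array, held 56.0% of their total squared deviation, against 15.7% for the other 44 bright genes. Without both arrays of 09I1 these shares were 68.8% and 5.68%. The basal samples spread more than the final ones: the median SD over 5 samples was 0.094 in basal and 0.059 in final samples, and 0.033 in final samples without 09I1. In the basal samples the median deviation was -0.060, -0.032, -0.105, -0.012 and 0.118. The basal sample of 43D1 was the highest of the 5 basal samples for 38 of 38 bright members, and that of 12I1 the lowest for 28. In the final samples the median deviation was 0.108 in 09I1 and -0.017, -0.011, 0.012 and -0.006 in the other tumors. The final sample of 09I1 was the highest of the final samples for 28 of the 38 members and the lowest for 7.

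**Figure D3:**
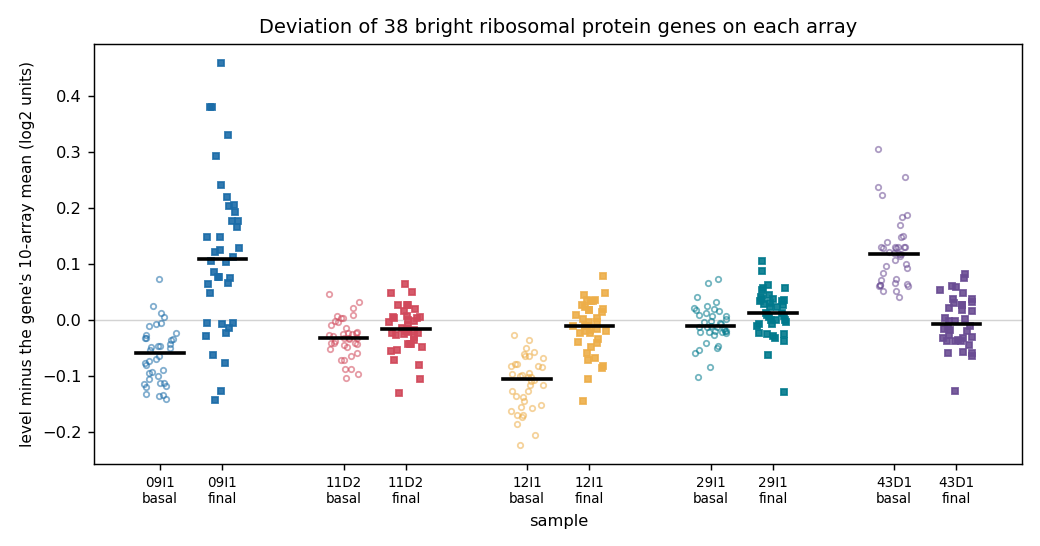
Level of each of the 38 bright genes minus that gene's mean over 10 arrays (log2 units), by sample, with basal samples as open circles, final samples as filled squares and the median as a line. The basal sample of 43D1 lies highest among the basal samples (median 0.118), that of 12I1 lowest (-0.105), and the final samples other than that of 09I1 lie within 0.017 of 0 at the median.

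Between basal and final samples none of the ribosomal protein genes passed the test. In limma's paired fit over 23281 probe sets, 0 of the 43 had an adjusted p under 0.05 (all genes: 0%). Their lowest adjusted p was 0.977. Without adjustment, 0 members had p under 0.05, against 1.78% of genes higher and 1.1% lower in the final samples. The methods' paired t-test likewise gave 0 members adjusted and 0 unadjusted. So did limma without 11D2, without 29I1 or without 43D1. Further limma fits gave 0 adjusted and 1 unadjusted: Rpl30 with no block, with a random block and without 12I1, and Rps13 with array weights and without 09I1. Over all probe sets limma called 0 after adjustment, with a smallest adjusted p of 0.233, and 935 had an unadjusted p under 0.05.

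The mean changes of the bright members were small, from -0.03 to 0.09 log2 units, with standard errors of 0.078 to 0.129. The mean change was positive in 37 members and negative in 6, and its median over the 43 was 0.042 (a fold of 1.029). Over all tested genes 52.7% of mean changes were positive and the median was 0.014. The number of positive changes depended on 09I1. Without that tumor 24 of the 43 were positive, with a median of 0.005, beside -0.008 over all tested genes. Limma's array weights, which count the arrays of 09I1 less, gave 26 and 0.012. The final and basal levels overlapped in 43 of 43 members (groups apart in all genes: 0.432% with final higher, 0.408% with final lower). The number of members higher in all 5 tumors was 0, against 3.33% of genes, and the number lower in all 5 was 0, against 2.51%.

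Behind this mean the tumors moved in different directions. In 09I1, 39 of 43 members were higher in the final sample (all genes: 58.6%), with a median change of 0.167. In 12I1, 39 were also higher (all genes: 56.9%), with a median of 0.087. Tumor 43D1 went the other way: 3 were higher (all genes: 48.9%) and 40 lower, with a median of -0.134, a final level of 91.2% of the basal one. In 11D2 and 29I1, 27 of 43 were higher in each (all genes: 47.1% and 45.7%), with medians of 0.018 and 0.022. The value in 29I1 depends on the scaling: with each array centred on its median, 39 of 43 were higher there, with a median of 0.118. There is 1 pair of samples per tumor, so a single tumor's change has no replicate check. Over the 5 tumors, the medians of the bright members had a mean of 0.035 and an SD of 0.106.

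**Figure D4:**
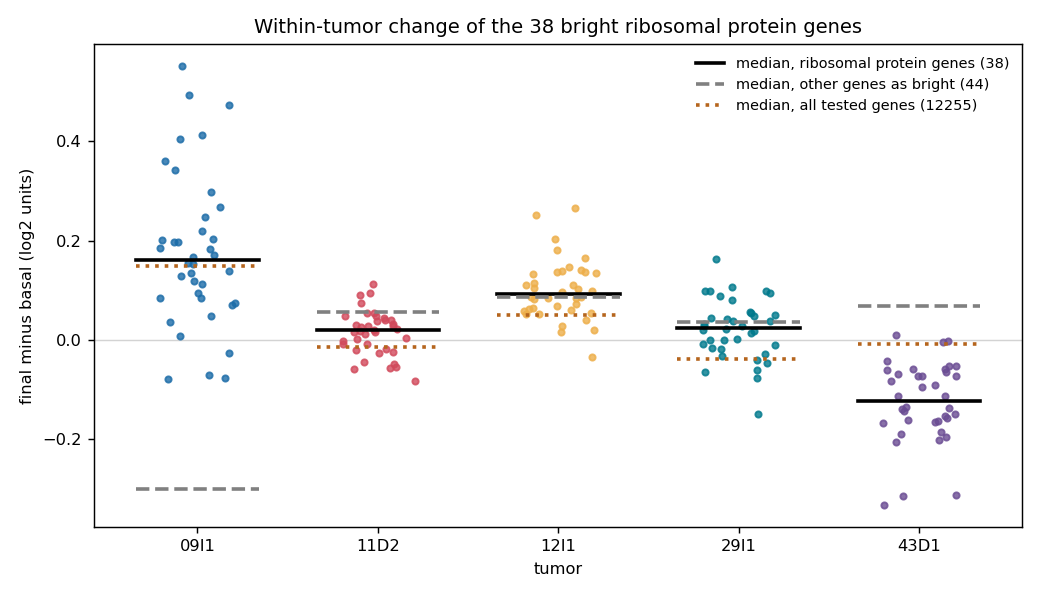
Final minus basal (log2 units) of each of the 38 bright ribosomal protein genes in each tumor, with the median of these genes (solid line), of the 44 other genes as bright (dashed) and of all tested genes (dotted). The genes lie mostly above 0 in 09I1 and 12I1, near 0 in 11D2 and 29I1 on the deposited scale, and below 0 in 43D1.

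Relative to other genes the tumors differed too. In 43D1 the bright members had a median of -0.123 while that of the other 44 bright genes was 0.069 and that of all tested genes -0.009. In 09I1 the members' median of 0.161 lay beside -0.300 for the other bright genes and 0.15 for all tested genes. In 12I1 the values were 0.092, 0.086 and 0.050. Centring each array on its median left the direction in 09I1 (43 of 43 higher) and 43D1 (6 of 43 higher), but in 12I1 it left 27 higher, with a median of 0.017. In 09I1 the members' centred median of 0.25 lay close to the 0.233 of all tested genes. In 43D1 it was -0.084, beside 0.041 for all tested genes. Centring raised 29I1 above 12I1, to the 0.118 given above, beside a median of 0.057 for all tested genes in that tumor after centring. After cyclic loess the median was 0.307 in 09I1, still positive in 12I1 (0.094), and -0.169 in 43D1. All tested genes then had medians of 0.133, -0.009 and 0.036 in these tumors. Loess turned 11D2, where 7 of 43 were then higher.

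Other measures moved in the same tumors. Cell cycle markers had median changes of 1.36, -0.16, 0.26, -2.07 and -2.28 over the tumors, so that these markers were much lower in the final samples of both 29I1 and 43D1. The members' median was 0.022 in 29I1 (0.118 after centring) and -0.134 in 43D1 (-0.084 after centring). Cell cycle markers read a median of 7.75 in the basal sample of 43D1, within the 7.04 to 8.94 of the basal samples, where the ribosomal protein transcripts were highest. Epithelial markers changed by a median of -0.22 in 09I1 and 0.26 in 43D1. Markers of other cells moved further. The 9 macrophage markers had medians of -0.55, 0.88, -0.85, -1.35 and 1.18 over the tumors. Of these, 9 of 9 were higher in 43D1 (all genes: 48.9%) and 0 of 9 in 12I1 (all genes: 56.9%). The 7 T cell markers had 0.92, 1.42, 0.05, -0.97 and 1.31, and the 8 fibroblast markers -0.51, 1.04, 0.78, -1.56 and -0.24. Red blood cell markers had -1.15, -1.29, -2.63, -0.36 and -0.28. Of the 5, 4 were lower with an unadjusted p under 0.05 in limma (all genes: 1.1%), though 0 after adjustment. The actin 3' to 5' difference rose from 0.96 to 2.61 in 09I1 and was 0.81 and 0.72 in the samples of 43D1. The part of cell makeup and RNA quality in the tumors' changes was not tested.

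Large subunit genes varied in how far they moved. Rpl22, an RNA-binding protein at the surface of the large subunit, read 13.10, 13.17, 13.13, 13.23 and 13.40 in the basal samples and 13.59, 13.16, 13.17, 13.09 and 13.09 in the final ones. The final sample of 09I1 was the highest of the 10, and the groups overlapped. Its mean change was 0.013 ± 0.129 (SE, n = 5), made of 0.49 in 09I1, -0.31 in 43D1 and -0.15 to 0.04 in the others. Without 09I1 its mean change was -0.107. Rpl23a, beside the exit tunnel, read 13.16, 13.22, 13.08, 13.23 and 13.38 in basal and 13.71, 13.18, 13.16, 13.19 and 13.19 in final samples. Its change of 0.55 in 09I1 was the largest of any bright member in any tumor, and without 09I1 its mean change was -0.047.

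Rpl35, also at the exit tunnel, changed by 0.41 in 09I1 and -0.19 in 43D1, Rpl21 by 0.41 and -0.31, and Rpl14 by 0.36 and -0.33. These 3 genes and Rps28 were singled out after their values were seen. In all, 34 of the 38 bright members were higher in 09I1 and lower in 43D1. The larger the rise in 09I1, the larger tended to be the fall in 43D1 (Spearman rho -0.37, Pearson r -0.51 across 38 genes). Both changes also went with array level across these genes. Spearman rho of level and change was -0.37 in 09I1 and 0.61 in 43D1 (Pearson r -0.44 and 0.67). Dimmer members thus tended to rise more in 09I1 and to fall more in 43D1. In 11D2, 12I1 and 29I1 this rho was 0.36, -0.15 and -0.03. The part of array level in the opposite changes of 09I1 and 43D1 was not tested.

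Some large subunit genes did not rise in 09I1. Rpl3 read 13.71, 13.77, 13.69, 13.71 and 13.84 in basal and 13.63, 13.82, 13.82, 13.88 and 13.85 in final samples. On this probe set it was lower in 09I1 (-0.079) and higher in the other 4 tumors, by only 0.01 in 43D1. These signs were the reverse of Rpl22 in the first and last tumor, and the mean change of Rpl3 was 0.056 ± 0.083. A second probe set of Rpl3, at 7.72, changed by 0.61, -0.03, -0.23, 0.32 and 0.06 over the tumors. Rpl4, which lines the exit tunnel, changed by -0.077 in 09I1 and -0.20 in 43D1, with a mean of -0.029 ± 0.091, the lowest among the bright members.

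Rpl5 and Rpl11, the Mdm2-binding pair, moved little. Rpl5 read 13.62, 13.58, 13.53, 13.61 and 13.81 in basal and 13.55, 13.60, 13.62, 13.66 and 13.68 in final samples. Rpl11 read 13.35, 13.35, 13.28, 13.31 and 13.42 in basal and 13.43, 13.36, 13.40, 13.33 and 13.36 in final samples. Their mean changes were -0.0091 ± 0.084 and 0.034 ± 0.083. In both, the basal sample of 43D1 was the highest and that of 12I1 the lowest basal sample.

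Among the others, Rpl26 had a mean change of 0.063 ± 0.079 and was higher in 4 of 5 tumors. Rpl41, one of the smallest ribosomal proteins, had 0.042 ± 0.082 and Rpl7a 0.048 ± 0.082, each higher in 4 of 5. Rpl27a changed by 0.044 ± 0.078 and Rpl12 by 0.087 ± 0.091. Rpl13a, which can leave the ribosome to silence inflammatory messages, had a mean change of -0.0078 ± 0.086. Each of these means was under its own standard error in size.

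The stalk protein Rplp0, the base on which Rplp1 and Rplp2 are mounted to recruit elongation factors, had the smallest p of the bright members. It read 13.45, 13.53, 13.38, 13.55 and 13.61 in basal and 13.70, 13.57, 13.57, 13.57 and 13.55 in final samples. It was higher in the final sample of 4 tumors and lower in that of 43D1, and the groups overlapped. Its mean change was 0.088 ± 0.089 (SE; limma adjusted p = 0.977).

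In the small subunit the pattern over tumors was the same in outline. Of its 12 bright members 11 were higher in 09I1, 11 in 12I1 and 0 in 43D1, with medians of 0.147, 0.090 and -0.144. The 26 bright large subunit members had medians of 0.169, 0.093 and -0.093, with 23, 26 and 1 higher. The subunits' difference was not tested.

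Rps6 read 13.76, 13.80, 13.74, 13.80 and 13.86 in basal and 13.74, 13.81, 13.80, 13.89 and 13.79 in final samples. It stayed within 0.15 log2 units over all 10 samples, and its mean change was 0.012 ± 0.079. Rps3, at the entry of the messenger RNA channel, read 13.41, 13.49, 13.38, 13.48 and 13.76 in basal and 13.49, 13.53, 13.55, 13.58 and 13.55 in final samples. The basal sample of 43D1 stood above all the others, and the mean change was 0.036 ± 0.092. Rpsa, known also as the laminin receptor precursor, had a mean change of 0.0059 ± 0.093.

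Rps28 changed by 0.47 in 09I1 and was lower in the other 4 tumors, with changes from -0.024 to -0.17. Rps15 changed by 0.34 in 09I1, with a mean of 0.089 ± 0.099, and Rps16 by 0.20, with a mean of 0.070 ± 0.085. Without 09I1 the means of Rps15 and Rps16 were 0.026 and 0.037. Rps23 and Rps24 had mean changes of 0.018 ± 0.085 and 0.019 ± 0.086, and Rps29 one of -0.0078 ± 0.082. None of these exceeded its standard error.

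The dim probe sets moved more, and less alike. Rps13, a core protein of the small subunit, read 5.49, 5.61, 5.38, 4.96 and 5.57 in basal and 5.83, 4.93, 4.77, 4.73 and 4.69 in final samples. It was lower in 4 of 5 tumors and higher in 09I1. Its mean change of -0.42 ± 0.20 had the smallest p of all members (limma adjusted p = 0.977), and without 09I1 it was -0.602 (adjusted p = 0.499). The probe set that Rps13 shares with its copies changed by 0.084 on average, the other way.

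Rpl30 read 4.0, 4.07, 4.33, 3.97 and 4.0 in basal and 4.14, 4.31, 4.19, 4.45 and 4.43 in final samples, higher in 4 of 5 tumors, by 0.23 ± 0.12 on average (limma adjusted p = 0.977). Its levels sat at the lower end of the tested range, which began at 4.11. Rpl28 had a mean change of 0.15 ± 0.22 and Rpl39 one of -0.15 ± 0.16. Rps4y2, a relative of Rps4x, had 0.22 ± 0.26, between 1.16 in 11D2 and -0.76 in 29I1.

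The 26 genes measured only together with their copies again were highest in change in 09I1, next in 12I1 and lowest in 43D1. In 09I1, 23 of the 26 were higher with a median of 0.224, in 12I1 22 with 0.069, and in 43D1 0 with -0.110. Over all genes 58.6%, 56.9% and 48.9% were higher in these tumors. In 11D2 and 29I1, 18 and 15 were higher, with medians of 0.016 and 0.011. Rps14 and Rps19, whose loss causes forms of inherited or acquired anaemia, had mean changes of 0.017 and 0.067. The stalk protein Rplp1 had 0.085 and Rps4x 0.008. Rpl38, known for its part in the translation of Hox messages, had 0.054, from 0.57 in 09I1 to -0.29 in 43D1. The largest change in 09I1 was that of Rpl36 (1.24), whose shared probe set read 8.51 on average. These arrays are the same, so the genes add readings of the same samples and not further samples.

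A second probe set did not always follow the first. For Rps24 the brighter one, at 13.78, was nearly flat, while a second, at 7.75, was lower in the final sample of all 5 tumors, with changes from -0.11 to -1.87 (mean -0.78). For Rpl7 the brighter one changed by 0.046 on average, and a second, at 7.71, was higher in all 5, by 0.13 to 0.92 (mean 0.48). The 2 further probe sets of Rpsa changed by 0.11 and 0.14 on average. The second one of Rpl3 differed in sign from the brighter one in 09I1, 11D2 and 12I1. That of Rpl14, at 4.5, changed by 1.2 in 09I1 and -0.14 in 43D1, in those tumors with the signs of the brighter one. In these samples the dimmer probe set of Rps24, Rpl3 or Rpl7 did not follow the brighter one.

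Genes with similar names that are not members were dimmer than the 38 bright members, though some were brighter than the 5 dim ones. Rps27l, a paralog known as a p53 target, read 8.60 ± 0.23 (SD, n = 5) in basal and 8.93 ± 0.44 in final samples and changed by 1.32 in 09I1 and 0.39 in 43D1 (mean 0.33 ± 0.23 SE, limma adjusted p = 0.977). Without 09I1 its mean change was 0.08 ± 0.12. Rpl3l, the form of Rpl3 made in striated muscle, read 4.03 on average, under the tested range. It changed by 0.88 in 11D2, whose final sample had high muscle markers, and by -0.28 to 0.33 in the others. Its relation to those markers was not tested. Rpl7l1 changed by -0.07 ± 0.14 and Rpl26l1 by 0.12 ± 0.18, and by 0.02 and -0.03 without 09I1. The pseudogene symbol Rpl37-ps2, at 4.37, was lower in 5 of 5 tumors, with changes from -0.11 to -0.29 (limma adjusted p = 0.977).

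Other transcripts of the TOP class had tumor medians in the same order as the ribosomal proteins on the deposited scale. In the latter 11D2 and 29I1 hardly differed (0.018 and 0.022), and centring put 29I1 above 12I1. Over all tested genes 09I1 and 12I1 also had the highest medians (0.15 and 0.05), while that of 43D1 was -0.009. The 16 TOP transcripts tested, which encode elongation factors, Rack1, Naca and others, had tumor medians of 0.17, 0.00, 0.129, 0.024 and -0.154. Of these 16, 11 were higher in 09I1 (all genes: 58.6%) and 2 in 43D1 (all genes: 48.9%). Their median mean change was 0.053, which became -0.001 without 09I1, and 0 passed the test. In 43D1 Rack1, which sits on the small subunit, changed by -0.16, Eef1b2 by -0.16 and Eef1g by -0.23. Members of the class did not all agree: the elongation factor Eef2 changed by -0.71 in 09I1 and -0.40 in 43D1. The initiation factor Eif4b changed by -1.11 and -0.48. Without 09I1 their mean changes went from -0.19 to -0.05 and from -0.29 to -0.09.

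Genes that assemble the ribosome had lower median changes than its proteins in 11D2, 12I1, 29I1 and 43D1, and a higher one in 09I1. The proteins' medians were 0.167, 0.018, 0.087, 0.022 and -0.134 over the tumors. These differences were not tested. The 41 tested ribosome assembly genes had tumor medians of 0.444, -0.042, -0.066, -0.196 and -0.455, and the 14 of RNA polymerase I, which transcribes ribosomal RNA, 0.370, -0.103, 0.074, -0.197 and -0.378. In 29I1 4 of 41 and 2 of 14 were higher, where 27 of the 43 ribosomal protein genes were (all genes: 45.7%). In 12I1 16 of 41 and 10 of 14 were higher, where 39 of the 43 were (all genes: 56.9%). Of the assembly genes 0 passed the test and 1 had an unadjusted p under 0.05: Tsr1, needed for the maturation of the small subunit, read 9.99 ± 0.20 (SD, n = 5) in basal and 9.62 ± 0.15 in final samples and was lower in 5 of 5 tumors, with changes from -0.21 to -0.64 (mean -0.36 ± 0.13 SE, limma adjusted p = 0.977). Wdr43 was also lower in 5 of 5 (mean -0.24 ± 0.14). Nolc1 and Mybbp1a were lower in 4 of 5.

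The 24 initiation factors had a median of -0.106. Of these, 4 were lower in all 5 tumors (all genes: 2.51%), among them Eif3a (-0.31 ± 0.14), Eif4g1 (-0.34 ± 0.17) and Eif5b (-0.21 ± 0.12). Without 09I1 these means were -0.20, -0.19 and -0.19. The number that passed the test was 0. The 22 genes of mTORC1 and the S6 kinases had a median of -0.083. Within them Larp1, which binds the TOP tract, changed by -0.35 ± 0.19 and the mTOR inhibitor Deptor by -0.53 ± 0.30, led by -1.14 and -1.84 in 09I1. Without that tumor they were -0.16 ± 0.10 and -0.20 ± 0.19. Myc and its partners (11 tested) had a median of -0.055 and the Mdm2 and p53 genes (7 tested) one of 0.074. In the latter Cdkn1a, the p53-induced cell cycle inhibitor, changed by 0.62 ± 0.30 and Mdm2 by -0.18 ± 0.15 (0.66 and -0.08 without 09I1). The number that passed the test was 0 in each list.

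Mitochondrial ribosomal proteins, which build the separate ribosome of that organelle, had other values. Their 73 genes had tumor medians of 1.118, 0.062, 0.125, -0.212 and -0.162. In 09I1 71 of 73 were higher (all genes: 58.6%), where cytosolic members had a median of 0.167. In 29I1 6 of 73 were higher (all genes: 45.7%). The largest mean changes among those named were 0.41 ± 0.21 in Mrps28 and 0.35 ± 0.21 in Mrpl52, with 1.28 in 09I1 for each. Without 09I1 these were 0.19 and 0.12, and the list's median of 0.194 became -0.043. The median of ribosome assembly lay at -0.200 without 09I1, against -0.058 with it.

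**Figure D5:**
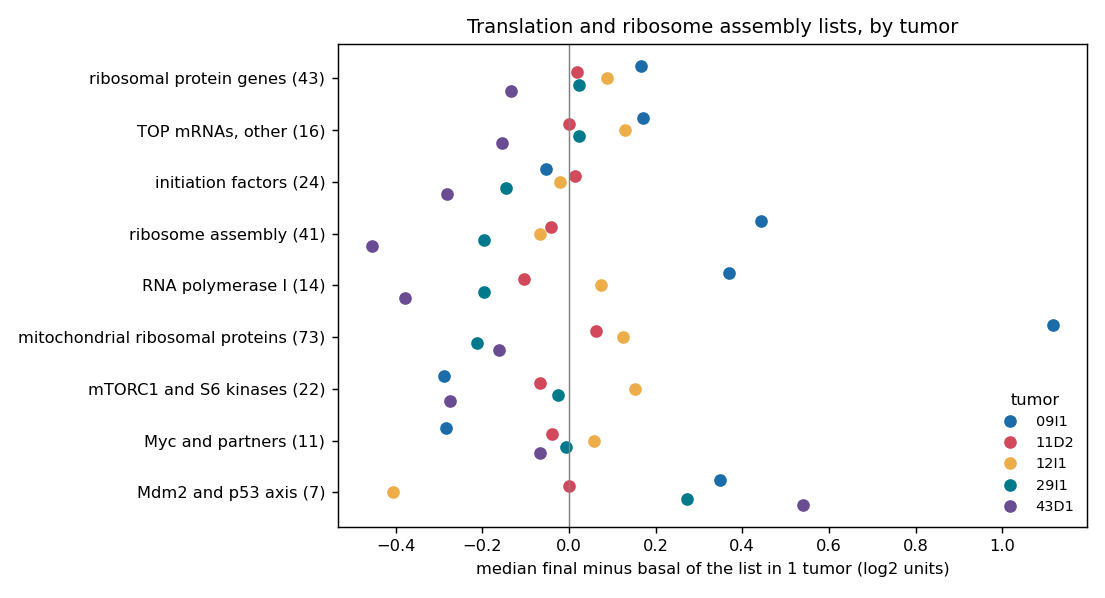
Median final minus basal (log2 units) of each gene list in each tumor, with the number of tested genes in parentheses. Tumor 09I1 lies farthest to the right for the mitochondrial ribosomal proteins (1.118) and ribosome assembly (0.444), and 43D1 farthest to the left for ribosome assembly (-0.455).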

How the data were processed

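RNA from 5 tumors, each with a basal and a final sample, was hybridised to 10 Affymetrix Rat Genome 230 2.0 arrays. The authors deposited log2 values for 31099 probe sets, normalised by robust multichip averaging per the labels and the submitters' processing notes (RMA). Per the design text, they used GeneSpring GX 7.3 for a paired Student's test. Precision is limited by the number of arrays.

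The 57 control probe sets and the 25% of the rest with the lowest mean (to 4.11) were left out. The change from basal to final was fitted over 23281 probe sets in R 4.3.3 (limma 3.58.1), taking the tumor as a block and using an intensity trend. P-values are limma's, with Benjamini-Hochberg adjustment over all of them and a threshold of 0.05. Values given as mean ± SE are the fit's. Names come from the platform annotation, and 41 of 43 members matched RefSeq (GRCr8) by Entrez identifier.

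The labels pair the samples, since each tumor's code stands on both of its samples. As a check, deviations from the group means correlated between the samples of a tumor at 0.072, 0.095, 0.014, -0.15 and 0.22. These values were low, and that of 29I1 was negative. They lend the pairing no support, so it rests on the labels.

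The members and lists were chosen with earlier results of these data known. Named genes were the 8 brightest and 5 dimmest members, the 6 with the smallest p in each direction, the most variable ones and a set of well-studied members. In other lists up to 4 genes with the smallest p were named, and others are said to have been chosen after their values were seen. Eef1b2, Eef1g, Rack1, Apoe, Krt19, COX2, Rpl35, Rpl21, Rpl14, Rpl6, Rps28 and the genes on shared probe sets other than Rps14, Rps19, Rplp1, Rps4x and Rpl38 are such choices. The fit was tested on simulated data. Figures were drawn with matplotlib 3.10.9.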

Additional observations from a re-analysis of the deposited data

Results flagged for a closer look

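In 82 sets of 5 values of the results above (levels of 26 named genes in basal and in final samples, their changes, and the arrays' median deviations), 13 had 1 sample farther from its neighbour than Dixon's limit at the 95% level. Chance flags about 1 in 20 such sets, or 4.1 of 82, and the sets share their arrays. In 11 of the 13 the sample was the final one of 09I1, whose control probe sets differed most between the 3' and 5' ends.

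It was high among the final samples for Rps29 (14.05 log2 units), Rps24 (13.89), Rpl41 (13.83), Rplp0 (13.70), Rpl23a (13.71), Rps15 (13.44), Rpl22 (13.59) and Rps13 (5.83), and low for Rpl3 (13.63). Its median deviation was 0.108 over the bright members and 0.166 over the genes on probe sets shared with copies. The other 2 were the basal sample of 43D1 for Rps3 (13.76) and that of 12I1 for Rpl30 (4.33). The part of RNA quality in these values was not tested.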

How the results depend on the processing

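Under 19 alternatives the number of members past limma's adjusted threshold stayed 0. Without the tumor block, in an unpaired fit, it was also 0, and so with a random block (correlation within tumors 0.0017) and by the methods' t-test. Of 485 values of the 26 named genes 455 kept their direction, and none was called, the lowest adjusted p being 0.238 (Rps13, array weights). The 152 medians of the other lists moved by less than the SD of the same list's 5 tumor medians (0.119 to 0.54), but 4 turned sign: without 09I1 the TOP list (-0.001) and the mitochondrial ribosomal proteins (-0.043), and without 43D1 ribosome assembly (0.042) and Myc and partners (0.003). The alternatives for single tumors and for the count of positive changes were added after seeing the data, and so were adding shared probe sets and keeping only the bright members.

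The number of members with the same sign in all tumors, 0 in the report, was 3 with arrays centred on their median, 2 when a gene's probe sets were averaged and 1 by the letters of the symbol alone. Leaving out a tumor gave 0 to 15. The 15 came without 43D1 (against 5.39% of all genes higher in those 4 tumors), and 3 came without 09I1. Of these 3, 1 was higher and 2 were lower, against 7.47% of all genes higher and 7.96% lower in those 4 tumors. The number with a positive mean change was 24 (without 09I1) to 41 (without 43D1), and 64 of 69 with shared probe sets added. With these, 62 of 69 were higher in 09I1 and 63 in 12I1. In 43D1 the 3 higher became 6 after centring, 1 with the lowest 50% left out and 1 among bright members. Cyclic loess gave 0.307 in 09I1, beside 0.133 for all tested genes. In 29I1 the 27 higher became 39 after centring and 24 after cyclic loess. Centring moved the median change of all genes from 0.014 to 0.045. The median level was 13.36 when a gene's probe sets were averaged. The causes were not tested.

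Named genes whose mean change, none of them called, turned sign were, after centring, Rps29 (0.024), Rpl5 (0.022), Rpl13a (0.024) and Rpl4 (0.002); with loess Rpl13a (0.003); with array weights Rps23 (-0.011), Rpl5 (0.003), Rpl23a (-0.03), Rpl22 (-0.063), Rpsa (-0.035) and Rpl28 (-0.022); with averaged probe sets Rps24 (-0.382); and with shared probe sets Rps13 (0.084). Leaving out 1 tumor gave -0.038 to 0.024 for Rps29, -0.005 to 0.034 for Rps6, -0.012 to 0.063 for Rps24, -0.026 to 0.04 for Rps23, -0.036 to 0.023 for Rpl5, -0.047 to 0.137 for Rpl23a, -0.107 to 0.094 for Rpl22, -0.028 to 0.024 for Rpl13a, -0.072 to 0.012 for Rpl4, -0.031 to 0.049 for Rpsa, -0.015 to 0.467 for Rps4y2 and -0.038 to 0.3 for Rpl28.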
